A study of Mus musculus with 16 samples.

Results

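The genes described here form a stretch of mouse chromosome 14 that runs from Rb1 to Lmo7 and has Klf5, a pluripotency factor left out of the list, near its end. The 35 members were chosen on measured values of these same arrays, because neighbouring genes were lower together in Prdm4 null cells than in wild-type cells and because wild-type arrays 1, 5 and 6 differed there from wild-type arrays 2, 3 and 4. Of the 35 members, 31 had at least one probe above background on enough arrays to be tested, out of 8707 tested genes on the whole array. Sucla2, Lcp1 and Tbc1d4 were not detected on any array, and Lmo7 was detected on 1 of 16. Tbc1d4, with which the list of members ends, lies before Commd6 and Uchl3 in the gene order of the RefSeq table of assembly GRCm38.p6, and the last member in that order is Lmo7.

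Total RNA of mouse embryonic stem cells (ESCs, cultured pluripotent cells of the early embryo) of strain 129/Sv was hybridised to Illumina Mouse WG-6 v2 bead arrays. There were 6 wild-type (Prdm4+/+) arrays, 4 Prdm4 null arrays and 6 Prdm4-EGFP arrays, and the deposited design gives each array a clone. The null genotype, Prdm4∆ZF/∆ZF, is a deletion of the DNA-binding zinc finger domain on both alleles, made by gene targeting in the CCE ESC line. Cells with a single targeted allele had its selection cassette removed by Cre recombinase and were then targeted again. The Prdm4-EGFP cells were stably transfected with full-length Prdm4 fused to green fluorescent protein, driven by the promoter of the pCAGGS vector and selected with puromycin. The labels do not say whether clones of a group arose separately, so that errors and p-values measure the spread between these arrays only. The brighter Prdm4 probe stood at 10.17 to 10.40 on the log2 scale in wild-type, at 9.56 to 9.72 in null and at 10.07 to 10.34 in Prdm4-EGFP. The dimmer probe stood at 7.06 to 7.49, 4.62 to 4.74 and 7.02 to 7.41 in these groups, and it was detected on 0 of 4 null arrays. Neither probe was higher in Prdm4-EGFP, and where on the transcript either probe lies is not given in the sources used here. These probes read RNA, while the study screened its Prdm4-EGFP clones for EGFP protein by flow cytometry and Western blot.

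Neighbouring genes on a mammalian chromosome commonly encode proteins of unrelated function, and the stretch is defined by position and not by a pathway. Its members include Rb1, the retinoblastoma protein that restrains entry into S phase, parts of the transcription and RNA decay machinery (Gtf2f2, Med4, Dis3), spindle and centrosome proteins (Bora, Mzt1, Pibf1), mitochondrial proteins (Mtrf1, Dnajc15) and enzymes and adaptors of the ubiquitin system (Uchl3, Kbtbd6, Kbtbd7).

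Promoter sequence was available from RefSeq (build GRCm38.p6, 250 bases before to 50 after a transcription start) for 31 of the 35 members, with 41 promoters in all. The 5 shown are those of neighbours that start close together and moved by unlike amounts (Wbp4 and Elf1) or by like amounts (Dis3 and Pibf1), and of Uchl3, whose levels on wild-type arrays spread most widely. Capitals mark GAAAC, or GTTTC, its complement on the other strand, which is the core of the sequence that the study's binding experiments gave for Prdm4. Wbp4 (minus strand, chr14:79481219-79481518) and Elf1 (plus strand, chr14:79480944-79481243) overlap at their ends. Dis3 lies on the minus strand (chr14:99099721-99100020), Pibf1 on the plus strand (chr14:99099174-99099473) and Uchl3 on the plus strand (chr14:101653717-101654016). Each sequence is written 5′ to 3′ on the strand of its gene.
Wbp4: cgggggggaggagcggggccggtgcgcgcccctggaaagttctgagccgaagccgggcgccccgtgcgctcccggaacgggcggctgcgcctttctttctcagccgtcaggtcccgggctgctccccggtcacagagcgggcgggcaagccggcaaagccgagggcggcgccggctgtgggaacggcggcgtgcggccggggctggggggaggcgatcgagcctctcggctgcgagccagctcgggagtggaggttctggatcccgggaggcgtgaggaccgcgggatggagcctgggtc
Elf1: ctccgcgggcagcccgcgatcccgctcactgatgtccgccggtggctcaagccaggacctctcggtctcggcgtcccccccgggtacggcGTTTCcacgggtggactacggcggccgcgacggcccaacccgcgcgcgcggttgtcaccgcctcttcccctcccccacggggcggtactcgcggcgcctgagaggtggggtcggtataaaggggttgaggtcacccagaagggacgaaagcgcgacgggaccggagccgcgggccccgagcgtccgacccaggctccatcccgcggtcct
Dis3: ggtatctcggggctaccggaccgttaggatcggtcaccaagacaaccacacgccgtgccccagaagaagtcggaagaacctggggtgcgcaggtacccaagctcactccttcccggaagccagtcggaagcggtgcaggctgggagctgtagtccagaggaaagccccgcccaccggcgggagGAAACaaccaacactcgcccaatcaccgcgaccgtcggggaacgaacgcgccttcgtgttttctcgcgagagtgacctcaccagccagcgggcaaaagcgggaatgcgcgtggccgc
Pibf1: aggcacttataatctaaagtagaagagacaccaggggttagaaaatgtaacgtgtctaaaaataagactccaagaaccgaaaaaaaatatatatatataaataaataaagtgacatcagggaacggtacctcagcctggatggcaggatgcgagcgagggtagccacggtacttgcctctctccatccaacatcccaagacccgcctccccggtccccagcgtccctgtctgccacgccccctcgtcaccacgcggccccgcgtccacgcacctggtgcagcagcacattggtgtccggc
Uchl3: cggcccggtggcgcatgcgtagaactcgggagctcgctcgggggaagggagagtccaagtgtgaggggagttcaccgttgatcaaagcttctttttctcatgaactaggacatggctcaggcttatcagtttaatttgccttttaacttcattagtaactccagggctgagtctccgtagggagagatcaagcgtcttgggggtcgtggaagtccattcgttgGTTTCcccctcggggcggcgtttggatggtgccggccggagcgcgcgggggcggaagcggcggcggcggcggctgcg
Elf1, Dis3 and Uchl3 held 1 match each, and Wbp4 and Pibf1 held 0. Over all member promoters GAAAC occurred on either strand in 16 of 41 (39%), against 45% of 32851 RefSeq promoters of the same length. CTNGAAAC occurred in 0 of 41 (3.83% of all), and GGG, a short gap and then CTNGAAAC in 0 of 41 (0.298% of all). The shorter letters are contained in the longer ones. A match or its lack describes these letters in these windows only. Member promoters had a median GC content of 62% and 24 CG dinucleotides, against 52.7% and 7 over all promoters. The set of all promoters was not limited to genes detected on these arrays, while most members were detected. The same values over detected genes alone are not given here.

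Levels below are log2 intensities after background correction and quantile normalization, and a probe counted as detected with a detection p under 0.01. The probe with the highest mean stood for a gene. Arrays had 13894 to 14905 detected probes and a median signal of 61 to 76. All 8 stem cell markers, Pou5f1 and Nanog among them, were detected on every array, with a log2 summed signal of 15.57 to 15.76 in null, 15.61 to 15.86 in wild-type and 15.68 to 15.83 in Prdm4-EGFP. Of 8 fibroblast feeder markers 2 to 3 were detected per array, and Col1a1, Col1a2, Col3a1, Lum and S100a4 on none. The log2 summed signal of these 8 was 10.39 to 10.74 in null, 10.54 to 10.91 in wild-type and 10.79 to 10.92 in Prdm4-EGFP. Of 5 endoderm, 5 trophoblast and 6 mesoderm and neural markers, at most 1, 1 and 2 were detected on an array. In null against wild-type the feeder marker Thy1 was lower (-1.79, SE 0.11) and Acta2 higher (0.38, SE 0.12), and Gata6 of the endoderm list (1.35, SE 0.32) and Nes of the neural list (0.47, SE 0.13) were higher. Of the stem cell markers Nanog (-0.85, SE 0.09) and Esrrb (-0.33, SE 0.07) were lower and Fbxo15 (0.67, SE 0.11) and Sox2 (0.29, SE 0.10) higher. The summed endoderm signal was 8.58 to 8.82 in null, 8.09 to 8.60 in wild-type and 8.23 to 8.75 in Prdm4-EGFP, and Afp, Foxa2, Gata4 and Sox17 were detected on no array. The part of these markers in the results below was not tested. In bulk RNA, fewer cells with a transcript and less of it per cell cannot be told apart.

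The stretch was low on every null array. Relative to the mean of the 6 Prdm4-EGFP arrays, the median member lay at -1.16 to -1.02 on the 4 null arrays, at -0.05 to 0.04 on the Prdm4-EGFP arrays and at -0.02 to 0.05 on wild-type arrays 2, 3 and 4. Wild-type arrays 1, 5 and 6 lay between, at -0.68 to -0.62. The same median over all 8707 tested genes was 0.01 to 0.02 on the null arrays. Over the 264 tested genes of chromosome 14 outside the stretch it was 0.01 to 0.06 on the null arrays and 0.00 to 0.01 on wild-type arrays 1, 5 and 6. All null arrays lay below all Prdm4-EGFP arrays for 29 of 31 members, against 19.4% of all tested genes. Rb1 and Elf1 were the exceptions. Members were chosen for low values in null, so this count describes the choice and carries no test.

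**Figure D1:**
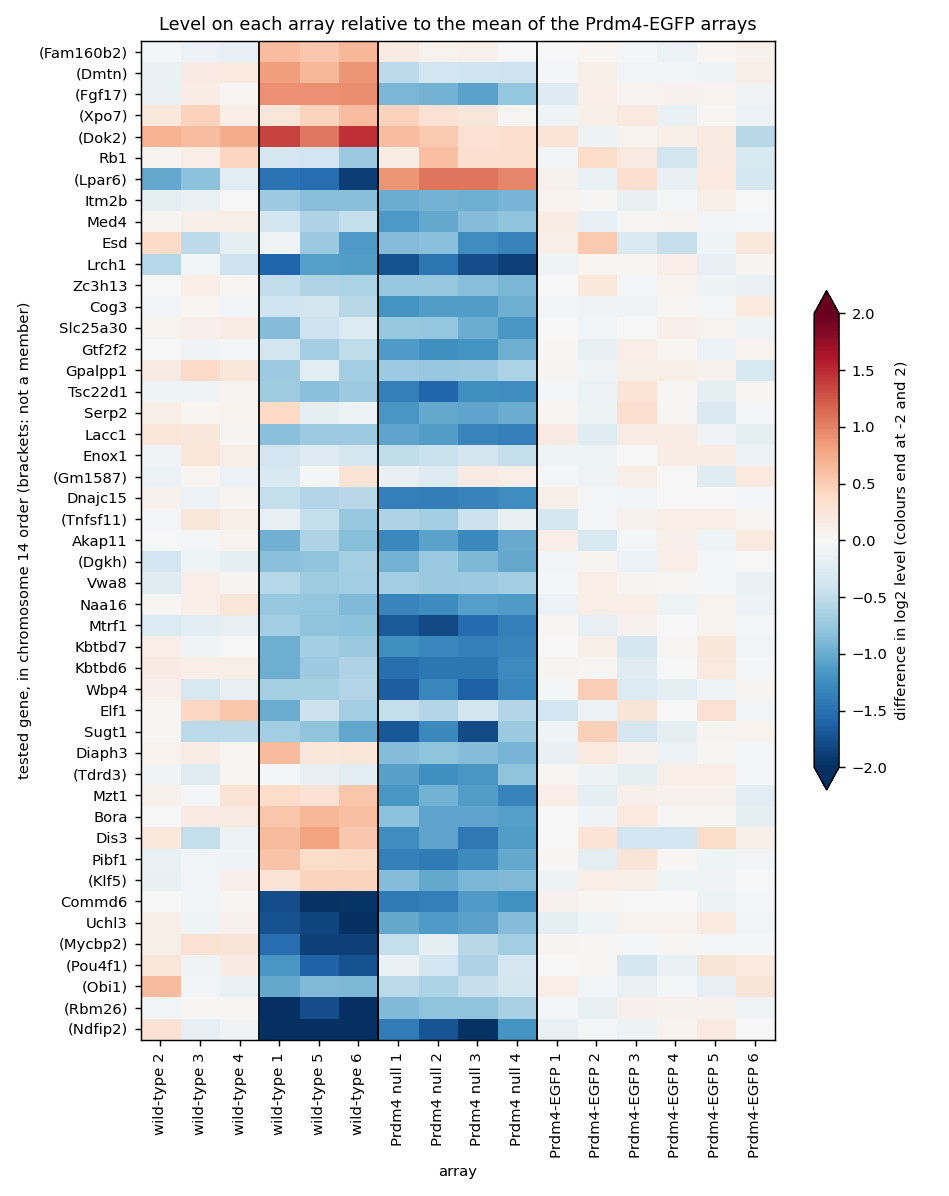
Log2 level of each tested gene from Fam160b2 to Ndfip2 (rows, in chromosome 14 order, with genes that are not members in brackets) on each of the 16 arrays (columns), as the difference from the mean of the 6 Prdm4-EGFP arrays. Blue is lower and red higher. The null columns are blue from Itm2b to Ndfip2, the last gene shown, with few breaks. The columns of wild-type arrays 1, 5 and 6 change from blue to red at Diaph3 and to dark blue at Commd6.

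In the fit of 3 group means, 27 members were called lower and 1, Rb1, higher in null than in wild-type (limma, adjusted p under 0.05 over all tested probes), against 21.2% of all tested genes lower and 22.9% higher. The median log2 fold was -0.86 (quartiles -1.09 and -0.57) over the 31 members and 0.02 over all tested genes. Without wild-type arrays 2, 3 and 4 it was -0.48, with 21 members called lower and 3 higher. The shares of all tested genes in that fit are not given here. Members were chosen on this contrast, so these counts describe the choice and carry no test. Between Prdm4-EGFP and null, which shares the null arrays with that contrast, 29 members were called higher and 0 lower, against 23.6% and 25.2% of all tested genes. At an unadjusted p under 0.05 the counts were 30 higher and 0 lower, and the share of all tested genes at that p is not given here. The median fold was 1.13 (-0.01 over all tested genes). These counts also describe the choice. The 3 members not called between null and wild-type were Elf1, Commd6 and Uchl3.

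**Figure D2:**
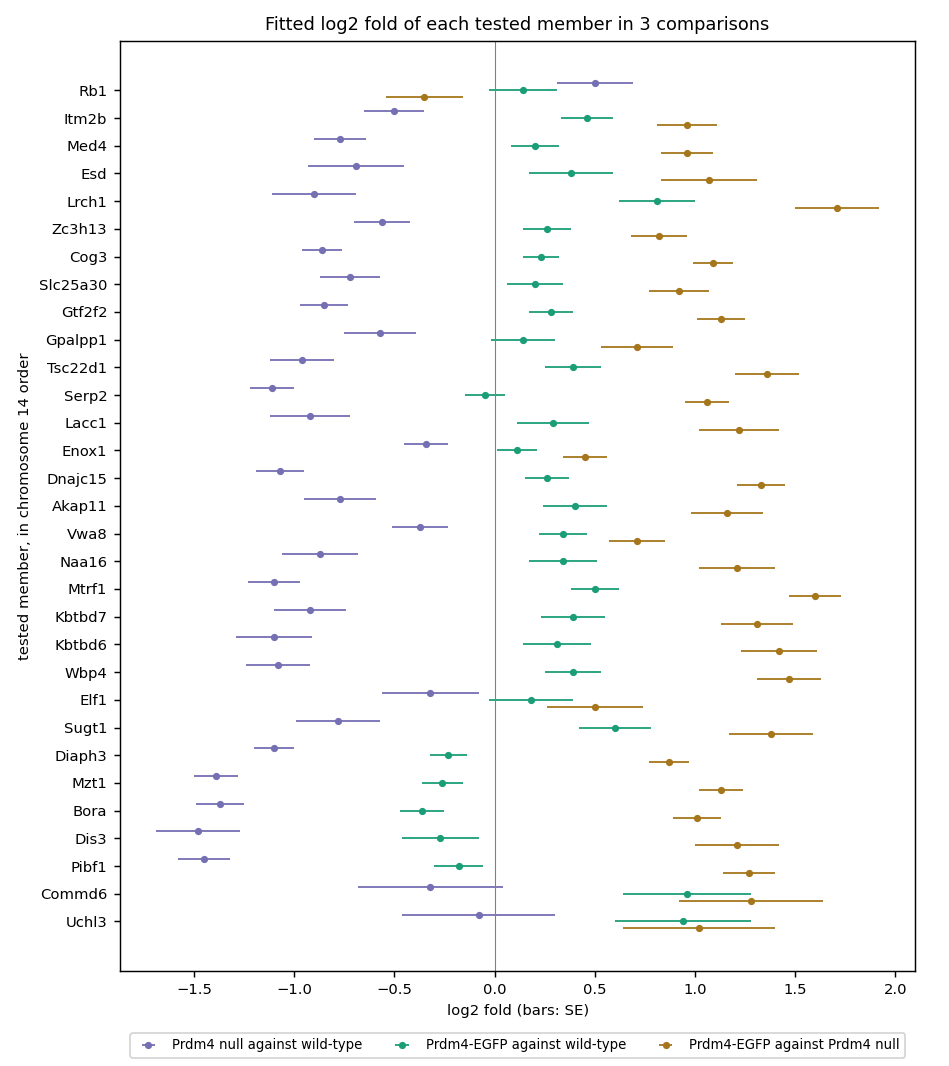
Fitted log2 fold (points) with its SE (bars) of the 31 tested members in chromosome 14 order, for null over wild-type (purple), Prdm4-EGFP over wild-type (green) and Prdm4-EGFP over null (brown). Folds of null against wild-type run from -1.48 (Dis3) to 0.50 (Rb1), and 30 of 31 lie below 0.

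Counts by role, here and below, are of members chosen for low values in null, so they describe the choice and carry no test. Among the 7 members that act in RNA synthesis, processing and decay, all tested, 6 were called lower in null. Of all tested genes 21.2% were, and the median fold of the 7 against wild-type was -0.85. Gtf2f2, the small subunit of the initiation factor TFIIF, stood at 11.23, 11.13, 11.16 and 11.39 on the null arrays. Wild-type arrays 1 to 6 gave 12.00, 12.35, 12.29, 12.32, 11.65 and 11.85, and Prdm4-EGFP ran from 12.21 through a median of 12.39 to 12.49. Every null array was below every other array, and the means differed by -0.85 (SE 0.12) from wild-type and by 1.13 (SE 0.12), a 2.19-fold difference, between Prdm4-EGFP and null.

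Med4, of the middle module of the Mediator coactivator, was at 9.74 to 10.08 in null, 10.26 to 11.01 in wild-type and 10.72 to 11.04 in Prdm4-EGFP, with no overlap of null with either group. Zc3h13, a part of the complex that writes N6-methyladenosine on mRNA, was at 9.13 to 9.30 in null, 9.42 to 10.20 in wild-type and 9.91 to 10.26 in Prdm4-EGFP. Its fold of null against wild-type was -0.56 (SE 0.14), smaller in size than the median of the members. Tsc22d1, a leucine zipper protein induced by TGF-beta, was read by probes for 2 transcripts. The brighter one (NM_009366) was at 9.73 to 10.09 in null, 10.48 to 11.36 in wild-type and 11.13 to 11.59 in Prdm4-EGFP, a fold of -0.96 (SE 0.16). The dimmer one (NM_207652) was detected on 0 of 4 null, 3 of 6 wild-type and 6 of 6 Prdm4-EGFP arrays.

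Wbp4, a spliceosome protein, and Elf1, an ETS family transcription factor, are head-to-head neighbours whose promoter windows are printed above. Wbp4 stood at 7.76, 8.12, 7.79 and 8.12 on the null arrays and at 8.75, 9.52, 9.09, 9.25, 8.75 and 8.82 on wild-type arrays 1 to 6. Prdm4-EGFP ran from 9.15 through 9.36 to 9.90, so null overlapped neither group, with folds of -1.08 (SE 0.16) against wild-type and 1.47 (SE 0.16) for Prdm4-EGFP against null. Elf1 stood at 7.61, 7.52, 7.73 and 7.52 on the null arrays and at 7.10, 8.13, 8.52, 8.65, 7.67 and 7.42 on wild-type arrays 1 to 6. Prdm4-EGFP ran from 7.72 through 8.07 to 8.41. The null arrays of Elf1 overlapped wild-type arrays 1, 5 and 6 and the lowest Prdm4-EGFP array, with folds of -0.32 (SE 0.24) against wild-type and 0.50 (SE 0.24) for Prdm4-EGFP against null. The difference between these neighbours was not tested.

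Dis3, the catalytic nuclease of the RNA exosome, had the largest fold of null against wild-type among the members, at -1.48 (SE 0.21). It stood at 5.84, 6.05, 5.67 and 5.99 on the null arrays, at 7.74, 7.31, 6.63, 6.98, 7.89 and 7.64 on wild-type arrays 1 to 6, and at 6.71 through a median of 7.16 to 7.47 in Prdm4-EGFP. Null was below all other arrays. In contrast to Gtf2f2 and Wbp4, wild-type arrays 1, 5 and 6 were the highest of the 16.

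Of 7 members that act in the cell cycle, spindle and cytoskeleton, 5 were tested, with 4 called lower in null and Rb1 called higher. Of all tested genes 21.2% were lower and 22.9% higher. Rb1 had 2 tested probes. The brighter stood at 7.80, 8.25, 7.97 and 7.97 on the null arrays, at 7.31, 7.70, 7.77, 8.08, 7.25 and 6.90 on wild-type arrays 1 to 6, and at 7.28 through 7.70 to 8.00 in Prdm4-EGFP. The null range overlapped wild-type arrays 2, 3 and 4 and the upper Prdm4-EGFP arrays, and lay above wild-type arrays 1, 5 and 6. The fold of 0.50 (SE 0.19) was 0.15 (SE 0.16), and not called, with wild-type arrays 1, 5 and 6 left out. The second Rb1 probe stood at 7.63 to 7.80 in null, 6.31 to 7.60 in wild-type and 6.82 to 7.33 in Prdm4-EGFP, so that null lay above every other array, with folds of 0.74 (SE 0.21) against wild-type and -0.71 (SE 0.21) for Prdm4-EGFP against null. Lpar6, a receptor gene that lies inside the span of Rb1 and is not a member, was higher in null as well, at 8.97 to 9.15 against 6.19 to 7.85 in wild-type and 7.72 to 8.41 in Prdm4-EGFP. The probes of both genes are short and were not mapped here.

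Bora, which helps activate Aurora A and Plk1 kinases at entry into mitosis, stood at 9.13, 8.89, 8.89 and 8.85 on the null arrays. Wild-type arrays 1 to 6 gave 10.51, 9.95, 10.11, 10.13, 10.61 and 10.54, and Prdm4-EGFP ran from 9.76 through 9.96 to 10.14. Null was below all others, and wild-type arrays 1, 5 and 6 were above all others. Its neighbour Mzt1, a small protein of the gamma-tubulin ring complex, was at 8.43 to 8.82 in null, 9.74 to 10.31 in wild-type and 9.53 to 9.90 in Prdm4-EGFP. Pibf1, a centrosomal protein, was at 7.17 to 7.58 in null, 8.46 to 9.17 in wild-type and 8.41 to 8.85 in Prdm4-EGFP, and all 4 of its tested probes had folds of the same sign. Diaph3, a formin that builds actin filaments, was at 7.60 to 7.73 in null, 8.58 to 9.16 in wild-type and 8.38 to 8.73 in Prdm4-EGFP. For all of Bora, Mzt1, Pibf1 and Diaph3 the null arrays overlapped neither group, and the folds against wild-type were -1.37 (SE 0.12), -1.39 (SE 0.11), -1.45 (SE 0.13) and -1.10 (SE 0.10). Lcp1, an actin bundler of blood cells, was not detected.

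Mitochondrial members numbered 5, of which all 4 tested were called lower in null, beside 21.2% of all tested genes. Mtrf1, a release factor of mitochondrial translation, stood at 8.05, 7.92, 8.19 and 8.36 on the null arrays, at 9.03, 9.46, 9.52, 9.56, 8.92 and 8.92 on wild-type arrays 1 to 6, and at 9.57 through 9.75 to 9.81 in Prdm4-EGFP. On this probe the 3 groups did not overlap, by a margin of 9.56 to 9.57 between wild-type and Prdm4-EGFP. On the other tested probes null was again lowest, but Prdm4-EGFP overlapped wild-type, at 8.71 to 9.15 against 7.95 to 8.88 and at 6.20 to 6.47 against 5.70 to 6.53. Dnajc15, a J-domain protein of the inner membrane, was at 10.16 to 10.30 in null, 10.95 to 11.63 in wild-type and 11.49 to 11.66 in Prdm4-EGFP, a fold of -1.07 (SE 0.12). Slc25a30, a carrier of the inner membrane, and Vwa8 had smaller folds of -0.72 (SE 0.15) and -0.37 (SE 0.14), and their null arrays overlapped wild-type arrays 1, 5 and 6. Sucla2, a subunit of succinyl-CoA ligase, lay at 4.44 to 4.76 on all arrays and was not detected.

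Of the 6 members of the ubiquitin system, protein folding and N-terminal acetylation, all tested, 4 were called lower in null (21.2% of all tested genes). Kbtbd6 and Kbtbd7, paired substrate adaptors of the ubiquitin ligase cullin 3, were at 7.93 to 8.18 and 7.49 to 7.64 in null, at 8.47 to 9.62 and 7.89 to 9.00 in wild-type, and at 9.21 to 9.64 and 8.53 to 9.09 in Prdm4-EGFP. Null overlapped neither group for either gene. They are related genes, and how far their probes cross-hybridise is not known here. Naa16, an auxiliary subunit of N-terminal acetyltransferase A, was at 9.18 to 9.39 in null, 9.61 to 10.74 in wild-type and 10.38 to 10.63 in Prdm4-EGFP, and its 3 probes had folds of -0.87, -0.74 and -0.69. Sugt1, a partner of the chaperone HSP90, was at 5.22, 5.62, 5.12 and 6.17 on the null arrays, of which 2 of 4 were detected, and at 5.87 to 6.93 in wild-type and 6.57 to 7.37 in Prdm4-EGFP. Null array 4 reached into the wild-type range and the other null arrays did not.

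Commd6, a member of the COMMD family of trafficking and ubiquitin adaptors, and Uchl3, a deubiquitinating enzyme, lie past Klf5. Commd6 stood at 9.12, 10.90, 10.85, 10.92, 8.93 and 8.94 on wild-type arrays 1 to 6, at 9.50, 9.53, 9.78 and 9.69 on the null arrays and at 10.80 through 10.90 to 10.99 in Prdm4-EGFP. Uchl3 stood at 9.51, 11.36, 11.17, 11.35, 9.43 and 9.08 on wild-type arrays 1 to 6, at 10.23, 10.12, 10.19 and 10.39 on the null arrays and at 11.08 through 11.26 to 11.46 in Prdm4-EGFP. For both genes the null arrays lay between wild-type arrays 1, 5 and 6 below and all remaining arrays above, with no overlap. The second Uchl3 probe gave the same order, with 5.69, 5.78 and 5.49 on wild-type arrays 1, 5 and 6, 6.19 to 6.37 in null and 7.20 to 7.44 in Prdm4-EGFP. The fits of null against wild-type, -0.32 (SE 0.36) and -0.08 (SE 0.38), average wild-type arrays that lie on both sides of null.

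**Figure D3:**
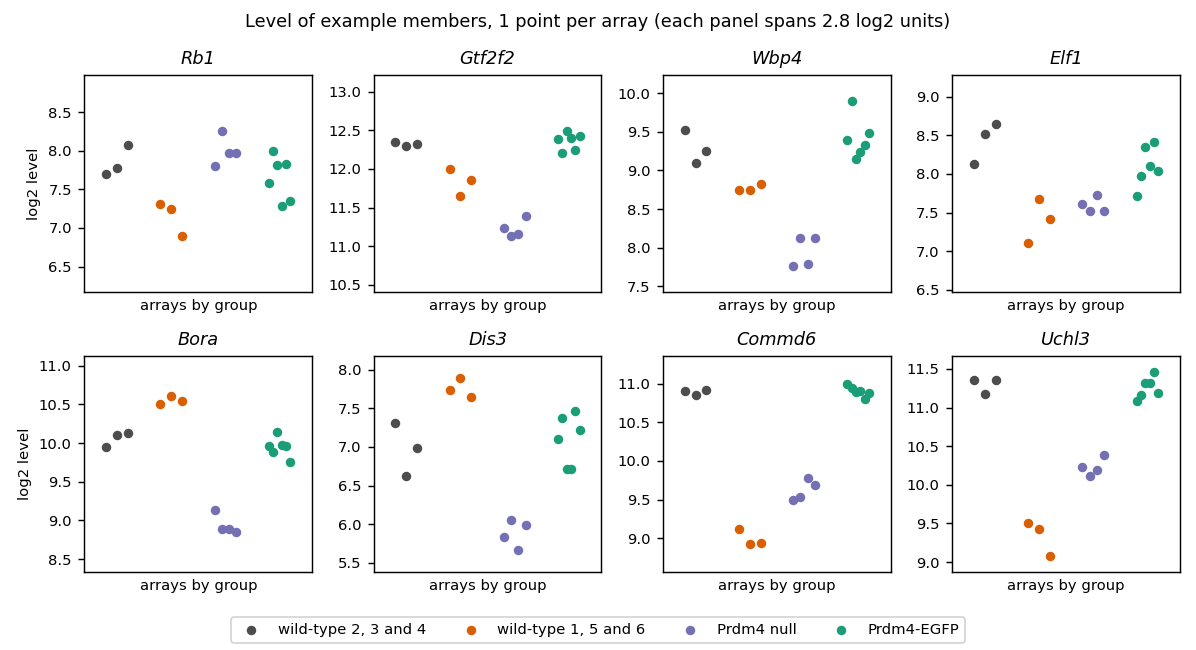
Log2 level of 8 members on each array, with 1 point per array and each panel spanning 2.8 log2 units. Wild-type arrays 1, 5 and 6 (orange) lie below wild-type arrays 2, 3 and 4 (grey) for Rb1, Gtf2f2, Wbp4 and Elf1, above them for Bora and Dis3, and below the null arrays (violet) for Commd6 and Uchl3.

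The 9 tested members of membrane traffic, signalling and other roles were all called lower in null, beside 21.2% of all tested genes. Their median fold was -0.77. Lrch1, a leucine-rich repeat protein, had the largest difference between Prdm4-EGFP and null of all members, 1.71 (SE 0.21). Lrch1 was detected on 3 of 4 null arrays and lay near background in null. It stood at 5.64, 5.93, 5.61 and 5.50 on the null arrays, at 5.79, 6.81, 7.33, 6.96, 6.28 and 6.27 on wild-type arrays 1 to 6 and at 7.21 through 7.42 to 7.51 in Prdm4-EGFP, so that null met only wild-type array 1. Cog3, of the complex that tethers vesicles at the Golgi apparatus, was at 7.70 to 7.92 in null, 8.33 to 8.93 in wild-type and 8.81 to 9.07 in Prdm4-EGFP. Akap11, an anchor of protein kinase A, was at 8.66 to 8.95, 9.00 to 10.03 and 9.64 to 10.15 in these groups, and Itm2b, a transmembrane protein, at 10.56 to 10.63, 10.71 to 11.56 and 11.41 to 11.67. Null overlapped neither group for Cog3, Akap11 and Itm2b.

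Smaller or less separate differences were found for Esd (esterase D), with a fold of -0.69 (SE 0.24), and for Enox1, a cell surface oxidase, with the smallest fold of those called, -0.34 (SE 0.11). Lacc1, known as a regulator of immune metabolism, was at 5.92 to 6.24 in null, 6.47 to 7.54 in wild-type and 7.06 to 7.48 in Prdm4-EGFP. Serp2 and Gpalpp1 were detected on 0 of 4 null arrays. With each null array set at its own lowest detected signal, Serp2 was at least 1.27-fold higher in wild-type and at least 1.22-fold higher in Prdm4-EGFP, and Gpalpp1 at least 1.19-fold and at least 1.31-fold. The measured means of Serp2 were 4.79 in null, 5.90 in wild-type and 5.84 in Prdm4-EGFP, and those of Gpalpp1 5.24, 5.81 and 5.95.

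Wild-type arrays differed among themselves along the stretch. The median SD between the 6 wild-type arrays was 0.39 over the members and 0.15 over all tested genes, while within null it was 0.13 (0.11 over all) and within Prdm4-EGFP 0.14 (0.13 over all). Arrays 1, 5 and 6 all lay below arrays 2, 3 and 4 for 24 of 31 members and all above them for 5, against 12.1% and 12.4% of all tested genes. This difference took part in the choice of members, the arrays are set apart by measured values and not by labels, and it carries no test.

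The direction changed along the chromosome, in 3 sections that were set after the values were seen. From Rb1 to Sugt1, 22 of 24 tested members had arrays 1, 5 and 6 below arrays 2, 3 and 4, and Esd and Serp2 overlapped. From Itm2b to Sugt1 the median member lay at -0.70 to -0.68 on arrays 1, 5 and 6, at 0.02 to 0.05 on arrays 2, 3 and 4 and at -1.20 to -1.01 on the null arrays, relative to Prdm4-EGFP. From Diaph3 to Pibf1 all 5 members had arrays 1, 5 and 6 above arrays 2, 3 and 4, at 0.37 to 0.57 against -0.02 to 0.07, while the null arrays stayed at -1.16 to -1.05. For Commd6 and Uchl3 arrays 1, 5 and 6 were at -2.07 to -1.76 and the null arrays at -1.25 to -1.04. The ranges of the null arrays overlapped between the sections. Those of wild-type arrays 1, 5 and 6, on whose direction the sections were set, did not, and this carries no test.

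**Figure D4:**
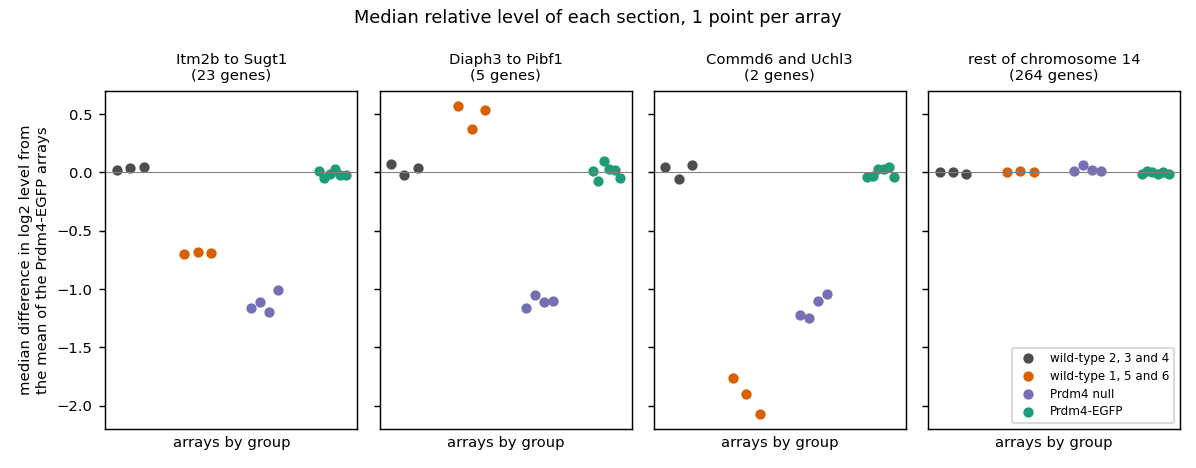
Median difference in log2 level from the mean of the Prdm4-EGFP arrays (vertical axis) on each array, for 23 members from Itm2b to Sugt1, 5 from Diaph3 to Pibf1, Commd6 and Uchl3, and the 264 tested chromosome 14 genes outside the stretch. The null points lie between -1.25 and -1.01 in the 3 sections, and those of wild-type arrays 1, 5 and 6 at -0.70 to -0.68, at 0.37 to 0.57 and at -2.07 to -1.76.

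Several members were read by more than one probe. Of 12 members with more than one tested probe, the probes shared the sign of the fold in all 3 comparisons for 12 of 12, and the order of wild-type arrays 1, 5 and 6 to 2, 3 and 4 for 10. Of all 47 tested member probes, 36 had arrays 1, 5 and 6 below, 8 above and 3 overlapping, against 12.3% below and 11.1% above among 13261 tested probes with a gene symbol. Every null array lay below every Prdm4-EGFP array for 44 of the 47, against 18.7% of those probes. Members were chosen on low null values and on the wild-type difference, so these probe counts describe the choice and carry no test. The second probe of Itm2b was not called in null against wild-type (-0.52, SE 0.22), and its null arrays (6.66 to 7.15) overlapped wild-type (6.92 to 8.26). Null met wild-type array 1 on the second probe of Akap11, at 6.26 to 6.50 against 6.49.

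Prdm4-EGFP cells were compared with wild-type cells. Their Prdm4 probes were not above wild-type, while the study screened such clones for EGFP protein. Of 31 members 2 were called higher than wild-type and 0 lower (limma, adjusted over all tested probes), against 1.9% and 2.19% of all tested genes, and the median fold was 0.28 (0.00 over all). At an unadjusted p under 0.05, 15 were higher and 3 lower, and the share of all tested genes at that p is not given here. The called members were Lrch1, with a fold of 0.81 (SE 0.19, adjusted p = 0.0212), and Mtrf1, with 0.50 (SE 0.12, adjusted p = 0.0242). Without wild-type arrays 1, 5 and 6 neither was called (0.35 and 0.22, adjusted p = 0.167 and 0.269), and the median over the members was -0.03. Without wild-type arrays 2, 3 and 4 the median was 0.64, with 23 members called higher and 5 lower. Leaving out single arrays gave 0 to 7 higher. The shares of all tested genes in these fits are not given here, and those above are for all arrays. The wild-type arrays in this comparison also took part in the choice of members.

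For 29 of 31 members the Prdm4-EGFP range overlapped that of wild-type arrays 2, 3 and 4, a share near the 92.1% of all tested genes. The exceptions were Mtrf1, where on the brightest probe all Prdm4-EGFP arrays (9.57 to 9.81) lay above all wild-type arrays, and Gpalpp1, where they (5.63 to 6.07) lay below wild-type arrays 2, 3 and 4 (6.12 to 6.34). The 5 members from Diaph3 to Pibf1 had folds of -0.36 to -0.18 for Prdm4-EGFP against wild-type and were not called. Commd6 and Uchl3 had the largest folds, 0.96 (SE 0.32, adjusted p = 0.11) and 0.94 (SE 0.34, adjusted p = 0.137), with Prdm4-EGFP overlapping wild-type arrays 2, 3 and 4 for both.

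Klf5 lies between Pibf1 and Commd6 among the tested genes. It was at 12.13 to 12.29 in null, 13.43 to 13.59 on wild-type arrays 1, 5 and 6, 13.00 to 13.25 on wild-type arrays 2, 3 and 4 and 13.04 to 13.29 in Prdm4-EGFP. Its fold of null against wild-type was -1.10 (SE 0.11), inside the range of the 5 members before it, and its wild-type arrays followed the same order as theirs. Of the 37 tested genes from Rb1 to Lmo7, 6 are not members. Besides Klf5 and Lpar6, Tdrd3, which reads methylated arginine, was at 6.98 to 7.40 in null and 7.97 to 8.23 in wild-type without overlap. Tdrd3 lies between Diaph3 and Mzt1, and unlike theirs its wild-type arrays 1, 5 and 6 (7.98 to 8.18) overlapped arrays 2, 3 and 4 (7.97 to 8.23). Null and wild-type overlapped for Dgkh, a diacylglycerol kinase, at 6.00 to 6.28 and 6.19 to 6.93. Tnfsf11 (a fold of -0.29, SE 0.16) and Gm1587 (0.02, SE 0.11) differed less.

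Some of the tested genes next to the stretch differed as well, and the neighbours examined do not show where these differences end. The 5 tested genes before Rb1 are Fam160b2, Dmtn, Fgf17, Xpo7 and Dok2. Dmtn, an actin-binding protein, and Fgf17, a fibroblast growth factor, were lower in null, with folds of -0.87 (SE 0.15) and -1.38 (SE 0.19). Dok2, a docking protein next to Rb1 among the tested genes, was at 7.44 to 7.75 in null, 7.76 to 8.61 in wild-type and 6.59 to 7.42 in Prdm4-EGFP, and so was lowest in Prdm4-EGFP. For Fam160b2, Dmtn, Fgf17 and Dok2 wild-type arrays 1, 5 and 6 were above arrays 2, 3 and 4, the reverse of the order at Itm2b. Fgf17, for one, stood at 10.62 to 10.63 on arrays 1, 5 and 6 and at 9.58 to 9.85 on arrays 2, 3 and 4. Past Lmo7 the next 5 tested genes are Mycbp2, Pou4f1, Obi1, Rbm26 and Ndfip2, and all 5 had wild-type arrays 1, 5 and 6 below the null arrays and below arrays 2, 3 and 4. Rbm26, an RNA-binding protein, stood at 7.81 to 8.21 on arrays 1, 5 and 6, at 9.10 to 9.33 in null, at 9.91 to 10.01 on arrays 2, 3 and 4 and at 9.83 to 10.07 in Prdm4-EGFP. Ndfip2, an adaptor of Nedd4 family ubiquitin ligases, stood at 4.72 to 5.16, 5.20 to 5.98, 7.00 to 7.45 and 7.03 to 7.36. The order seen at Commd6 and Uchl3, with null between wild-type arrays 1, 5 and 6 and all others, held for 4 of these 5 genes. For Pou4f1 null (6.15 to 6.62) overlapped Prdm4-EGFP (6.43 to 7.01). Obi1 stood at 4.72 to 4.86 on arrays 1, 5 and 6 and at 5.11 to 5.38 in null. These low values of Obi1, and those of Ndfip2, lie near the level of Gpalpp1 in null (5.19 to 5.31), which was not detected there.

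Genes elsewhere that work with the members, or are related to them, were read on the same arrays and are called partners here. Of 81 partner genes in 11 lists of known complexes and partners, 66 were tested, with 12 called lower and 17 higher in null than in wild-type, beside 21.2% and 22.9% of all tested genes, and a median fold of 0.03. Mediator had 24 tested genes, of which 11 were higher and 2 lower, among them Med9 (-0.53, SE 0.08) and Med23 (0.44, SE 0.09, adjusted p = 4.7e-04). Of 10 tested genes of the RNA exosome list 3 were higher, Exosc4 (0.45, SE 0.08) and Exosc2 (0.33, SE 0.07) with the smallest p, and 2 lower. Of 6 tested genes of the gamma-tubulin ring complex Tubgcp5 rose by 0.84 (SE 0.09), and Mzt2 fell by 0.28 as one of 3 that were lower. The COG complex had Cog1 higher (0.35, SE 0.11) and Cog4 lower (-0.19, SE 0.07) of 6. Of 8 COMMD genes Commd3 was higher (0.58, SE 0.10) and 2 were lower, Commd10 (-0.35, SE 0.06) among them. Of 2 tested genes of the succinyl-CoA ligase list, Suclg2 was lower by a log2 fold of -0.52 (SE 0.08) and the other was not called (-0.18). The Rb1 relative Rbl1 stood at -0.44 (SE 0.13). Of 5 tested genes of the m6A writer complex 0 were called by limma and 1 had an unadjusted p under 0.05. Gtf2f1, the other subunit of TFIIF, had a fold of 0.08, the kinases Aurka and Plk1 that act with Bora had folds between -0.29 and 0.16, and the 1 tested partner of Naa16 had 0.02, and none of these 4 was called. Both kinases had an unadjusted p under 0.05, and both were called between Prdm4-EGFP and null. In Prdm4-EGFP against wild-type 0 of the 66 partners were called by limma, beside 2.19% lower and 1.9% higher of all tested genes. At an unadjusted p under 0.05 there were 7, and the share of all tested genes at that p is not given here.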

How the data were processed

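Per the file headers, the deposited scanner table gave 45281 probes on each array a linear signal intensity and a detection p-value, neither background subtracted nor normalized by the authors. A second deposited table held the same intensity after rank-invariant normalization by the authors. Array annotation paired 34885 probes with 1 gene symbol, 18 with several and left 10378 unnamed. Its genome build is not given in the sources used here, so gene order alone came from the RefSeq table of GRCm38.p6.

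With limma 3.58.1 under R 4.3.3, neqc removed the background estimated from detection p-values, and quantile normalization and log2 followed an offset of 16. A probe was tested (15356 were) if at least 4 of 16 arrays detected it at p under 0.01. The functions lmFit and eBayes fitted 3 group means to all arrays, two-sided, with Benjamini-Hochberg adjustment over all tested probes within a comparison and a threshold of 0.05. Calls refer to that threshold, the error of each fold is its SE in log2 units, and the probe with the highest mean stood for a gene. The study's own error model was not used here. On simulated data with 200 probes moved by a log2 change of 1, drawn for null against wild-type over 15356 probes, the fit recovered 200. All simulated probes shared the median wild-type SD of the tested probes. The median wild-type SD was 0.39 over the members and 0.15 over all tested genes, so this recovery does not apply to the members. The depth of an array is not a count, and the number of arrays limits the precision.

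The members and the gene lists were chosen with earlier results of these data known. The text names all 35 members, Klf5, the 5 tested neighbours on each side and at most 2 partners per list (smallest p). Genes inside the stretch that are not members were added after their values were seen. Tables and figures used matplotlib 3.10.9, numpy 2.4.6 and pandas 2.3.3 under Python 3.11.15. Alternatives covered the normalization, the offset, the probe filter, the probe of a gene, blocks by array number and leaving out arrays.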

Additional observations from a re-analysis of the deposited data

Results flagged for a closer look

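Of 93 groups of arrays examined (31 members in 3 groups), 4 had one array far from the others, where chance gives about 4.65 at 1 in 20. Bora stood at 9.13 on null array 1 and at 8.85 to 8.89 on the other null arrays. Diaph3 stood at 9.16 on wild-type array 1 and at 8.58 to 8.77 on the rest of wild-type. Cog3 stood at 9.07 on Prdm4-EGFP array 6, with the others at 8.81 to 8.90, and Dnajc15 at 11.66 on Prdm4-EGFP array 1, with the others at 11.49 to 11.54. Lmo7, which was below the filter for testing, was detected on Prdm4-EGFP array 3 alone, at 5.66, above the wild-type arrays at 4.40 to 5.04.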

How the results depend on the processing

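Counts over the members rest on which wild-type arrays enter. No share of all tested genes is given for the fits below. With wild-type arrays 2, 3 and 4 left out, the median fold of null against wild-type was -0.48, with 3 members called higher, and Prdm4-EGFP against wild-type had 23 members called higher and 5 lower. Elf1 (0.20), Commd6 (0.63) and Uchl3 (0.89) then turned positive in null against wild-type. With wild-type arrays 1, 5 and 6 left out, 0 members were called higher in null against wild-type, and in Prdm4-EGFP against wild-type the median was -0.03 and 0 were called higher. Turned in sign there were Rb1 (-0.20), Med4 (-0.10), Zc3h13 (-0.06), Slc25a30 (-0.11), Gpalpp1 (-0.26), Lacc1 (-0.17), Enox1 (-0.10), Dnajc15 (-0.01), Akap11 (-0.01), Naa16 (-0.13), Kbtbd7 (-0.03), Kbtbd6 (-0.14), Elf1 (-0.33), Uchl3 (-0.04), Dis3 (0.13) and Pibf1 (0.09). Either omission brought 1 call of a lower member, Rb1, in Prdm4-EGFP against null. The cause was not tested.

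Deviations from the group means of same-numbered arrays correlated at 0.0962 on average (14 pairs, -0.0564 to 0.231, 7 above 0.1), against -0.019 over 70 other pairs, so the numbers are not used as pairs. A replicate block gave 27 lower and 0 higher members in null against wild-type (median -0.94), 2 higher and 0 lower in Prdm4-EGFP against wild-type (median 0.28) and 30 higher in Prdm4-EGFP against null (median 1.20). Rb1 was also not called in null against wild-type with the deposited value table, with no filter on dim probes, with arrays numbered 1 and 2 and arrays numbered 3 and above as blocks and within each of these sets, all with 0 higher members. Within numbers 1 and 2, 16 members were called lower in null, and in Prdm4-EGFP against wild-type 0 were higher within either set. These 2 fits were added after the data were seen, and within numbers 3 and above Uchl3 in null (0.03) and Serp2 in Prdm4-EGFP (0.06) against wild-type changed sign. In Prdm4-EGFP against wild-type the offset of 50 gave 4 higher and 1 lower, no filter 0 higher, and detection on all 16 arrays 1 higher of 27 members. In Prdm4-EGFP against null the median was 1.28 with the deposited table, 0.96 with the offset of 50 and 1.06 with the mean of all probes of a gene, which called 1 member lower.

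Leaving out each array gave, in null against wild-type, medians of -0.94 to -0.77, 25 to 27 lower and 0 to 1 higher. In Prdm4-EGFP against wild-type it gave medians of 0.21 to 0.34, 0 to 7 higher and 0 to 1 lower, with 7 higher without wild-type array 2, 4 without array 3 or 4, and 0 without array 5 or 6. In Prdm4-EGFP against null it gave medians of 1.11 to 1.16, 28 to 30 higher and 0 lower. Uchl3 in null against wild-type ran from -0.33 to 0.12, and was above 0 without wild-type array 2, 3 (0.09) or 4, and Serp2 in Prdm4-EGFP against wild-type ran from -0.12 to 0.01, with 0.01 without wild-type array 1 and 0.00 without Prdm4-EGFP array 5. The counts of members with wild-type arrays 1, 5 and 6 below (24) or above (5) arrays 2, 3 and 4 were the same with median scaling and with the deposited table. Dim members (Gpalpp1, Serp2, Sugt1, and Lrch1 in null) lie near background, where the offset shrinks a fold.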
